A study of Mus musculus with 144 samples.

Results

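The 9 genes described here encode complement proteins of the plasma and 1 receptor of the pathway. They are *C3*, *C4b*, *Cfb*, *C6*, *C8a*, *C8b*, *C9*, *Cfi* and *C5ar1*, chosen by name and not by a threshold on their values. Each was matched from its symbol to its Ensembl identifier, which selected 9 of the 55359 genes listed in the count files. Their unstranded counts were followed in every RNA-Seq library of the series by genotype label, treatment and hour, and all 9 passed the filter on low counts in every comparison below.

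The series addressed whether a dioxin response element (DRE) in *Pkm*, the pyruvate kinase gene, shapes the hepatocyte response to TCDD, a dioxin that activates the aryl hydrocarbon receptor (AHR). Primary hepatocytes were isolated by liver perfusion from male mice with a labelled age of 28 days. The medium held TCDD at 10 nM or its vehicle, DMSO, and libraries cover 9 time points of culture, the first at 2 h and the last at 120 h. Each of the 36 combinations of label, treatment and hour held 4 libraries, which are named here by the number in their titles (L1 is the first).

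Libraries labelled WT came from the strain C57BL/6NCrl with the genotype wild-type. Those labelled PkmΔDRE came from the strain Pkm-delta-DRE with the genotype DRE-null, a line in which the element was deleted by genome editing in the whole animal and so in every cell type of the liver. Dexamethasone, a glucocorticoid, was in the medium of all groups, vehicle included. The labels gave no animal, isolation or replicate number, so the 4 libraries of a group may be technical samples, and p-values measure only the spread between them. A difference between the labels cannot be told apart from a difference between cell isolations.

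Complement is a cascade of plasma proteins that marks microbes for uptake and punctures their membranes. C4 and factor B help to form the enzymes that cleave C3, the cascade's central protein, and cleaved C5 recruits C6, C7, C8 and C9 into the membrane attack complex. Factor I is the protease that switches the cascade off, and C5AR1 is the receptor through which myeloid cells sense the C5a fragment. Hepatocytes are the main source of most of these plasma proteins.

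Between 13588800 and 30719200 read pairs per library were counted on genes, with a median of 18011800. The targeted gene, *Pkm*, went against the genotype labels, since at 8 h it was at 109.2 to 169 CPM (the count scaled to library size) under TCDD and 37.8 to 81.5 in vehicle in the PkmΔDRE libraries, and at 29.3 to 62.6 and 41.8 to 80.8 in the WT libraries. Groups are therefore named by the labels of their libraries. *Cyp1a1*, the standard AHR target, was at 6.24 to 8549 CPM in 70 TCDD libraries and 0.400 to 269.5 CPM in 70 vehicle libraries. The other 4 libraries stood apart from their own hour. WT vehicle libraries L21 (48 h) and L31 (96 h) held 3285 and 1717 CPM, where the other vehicle libraries of those hours held 1.34 to 2.37 and 17.9 to 114.1 CPM. WT TCDD libraries L40 (2 h) and L64 (72 h) held 1.15 and 29.2 CPM, where the other TCDD libraries of those hours held 6.24 to 29.8 and 3386 to 6764 CPM.

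A further pair of libraries stood apart in the hour of culture. Each library was set against the mean profiles of the 9 hours over 12234 genes. These profiles were means of the other libraries of its label and treatment, with libraries L80 and L104 kept in. Library L80, labelled PkmΔDRE vehicle 4 h, had a Spearman correlation of 0.981 with the 72 h profile and 0.794 with its own hour. Library L104, labelled PkmΔDRE vehicle 96 h, had 0.963 with the 4 h profile and 0.780 with its own. Of all libraries, 99 were nearest to their labelled hour and 39 were 1 step away. The remaining 4 were PkmΔDRE vehicle libraries. Library L91 (24 h) had 0.936 with the 96 h profile and 0.932 with its own. Library L97 (72 h) had 0.971 with 120 h and 0.915 with its own. Libraries L105 and L108 (both 120 h) had 0.9750 and 0.964 with 72 h and 0.965 and 0.961 with their own. The PkmΔDRE vehicle profiles of 4 and 96 h held libraries L80 and L104. The nearest hours of the other libraries of that label and treatment, that of library L91 included, are therefore uncertain. No library was relabelled, and results that rest on libraries L80 or L104 are given with and without them.

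Levels are CPM on TMM-scaled library sizes, and errors of levels are SD over 4 libraries. In WT vehicle cultures at 2 h, *C3* was the highest of the 9 genes per kilobase of exon, at 3038 ± 207 CPM per kb. *C4b* followed at 587 ± 143.2, *Cfi* at 413 ± 65.8, *C8b* at 282 ± 117.95, *C9* at 275 ± 95.0 and *C8a* at 199 ± 58.2 CPM per kb. The libraries of each of these 5 overlapped those of its neighbour in the order, so neighbours did not differ beyond their spread. *C6* was below *C8a* without overlap at 64.1 ± 27.5 CPM per kb, and *C5ar1* and *Cfb* were lowest at 2.54 ± 0.631 and 0.787 ± 0.153. The level per kb and the rank of *Cfb* are uncertain at every hour. Of its exon bases 79.5% are shared with *Gm20547*, and read pairs that overlap both genes are not counted. The length used was that of all its exons. The order of the genes was the same in PkmΔDRE vehicle cultures at 2 h, from *C3* at 3949 ± 703 to *Cfb* at 0.619 ± 0.339 CPM per kb.

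By 120 h the order had changed. In WT vehicle cultures *C3* was still first at 324 ± 96.2 CPM per kb, and *Cfi* at 115.01 ± 34.9 stood before *C4b* at 63.5 ± 36.6. *C9* at 5.46 ± 5.99, *C5ar1* at 1.59 ± 1.53, *C8b* at 1.45 ± 1.86, *C8a* at 0.853 ± 1.06, *C6* at 0.711 ± 0.889 and *Cfb* at 0.606 ± 0.145 CPM per kb followed. In the WT means *C5ar1*, below all the terminal components at 2 h, thus stood between *C9* and *C8b* at 120 h, and *Cfb* was last at both hours. Libraries of neighbours overlapped from *C9* to *Cfb*, and for *Cfi* and *C4b*, so these neighbours did not differ beyond their spread. In PkmΔDRE vehicle cultures at 120 h *C5ar1* (2.62 ± 2.15) stood before *C9* (2.57 ± 1.29). *Cfb* (0.475 ± 0.152) stood before *C8b* (0.447 ± 0.166) and *C6* (0.423 ± 0.273 CPM per kb), again with overlap.

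The promoters of the terminal components are shown because these 4 genes moved together in the data, and that of *C3* for comparison. Each line is the 250 bases before the RefSeq start of the gene (GRCm38.p6), 5′ to 3′ on the gene's own strand, with motif matches in capitals. *C6* is at chr15:4726960-4727209 (plus strand), *C8a* at chr4:104876399-104876648 (minus), *C8b* at chr4:104766067-104766316 (plus), *C9* at chr15:6445096-6445345 (plus) and *C3* at chr17:57228137-57228386 (minus).
C6: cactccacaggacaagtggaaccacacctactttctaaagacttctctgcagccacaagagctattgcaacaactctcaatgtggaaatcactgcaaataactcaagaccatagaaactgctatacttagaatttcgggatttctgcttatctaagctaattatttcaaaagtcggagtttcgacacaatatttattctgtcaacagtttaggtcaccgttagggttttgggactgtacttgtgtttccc
C8a: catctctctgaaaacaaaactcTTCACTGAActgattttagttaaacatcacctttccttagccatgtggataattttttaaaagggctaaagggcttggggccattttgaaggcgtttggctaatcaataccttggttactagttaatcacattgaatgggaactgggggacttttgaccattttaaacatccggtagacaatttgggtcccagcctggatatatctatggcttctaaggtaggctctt
C8b: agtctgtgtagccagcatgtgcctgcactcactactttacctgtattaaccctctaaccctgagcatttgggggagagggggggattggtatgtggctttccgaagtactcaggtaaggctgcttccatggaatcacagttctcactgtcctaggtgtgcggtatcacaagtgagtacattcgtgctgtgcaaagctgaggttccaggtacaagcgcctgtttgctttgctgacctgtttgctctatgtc
C9: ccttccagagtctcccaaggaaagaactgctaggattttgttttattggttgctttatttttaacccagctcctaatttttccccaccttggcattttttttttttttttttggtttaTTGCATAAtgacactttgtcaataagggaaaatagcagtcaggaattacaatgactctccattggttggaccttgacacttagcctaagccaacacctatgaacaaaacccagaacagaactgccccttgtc
C3: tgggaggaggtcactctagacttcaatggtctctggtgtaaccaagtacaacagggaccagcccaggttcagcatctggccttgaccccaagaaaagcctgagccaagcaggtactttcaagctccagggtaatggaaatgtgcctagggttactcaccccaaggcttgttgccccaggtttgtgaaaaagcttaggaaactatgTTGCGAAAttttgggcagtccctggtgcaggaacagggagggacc

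Of the 9 genes, 6 were matched to a promoter in the RefSeq table, and motifs were searched on both strands from 250 bases before to 50 after the start. The motifs were the AHR core GCGTG, NF-kB GGGNNTTCC, STAT TTCNNNGAA, C/EBP TTGCNNAA, and HNF4 CAAAGTCCA or CAAAGGTCA. *C6* held an AHR core at base 46 after the start, outside the stretch shown. *C8a* held a STAT match at base -228, *C9* a C/EBP match at base -132 and *C3* a C/EBP match at base -45, and *C8b* and *C5ar1* held none. Of 32851 promoters of the same length, 32.4% held the AHR core, 10.8% C/EBP, 8.30% STAT, 5.82% NF-kB and 0.950% HNF4.

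**Figure D1:**
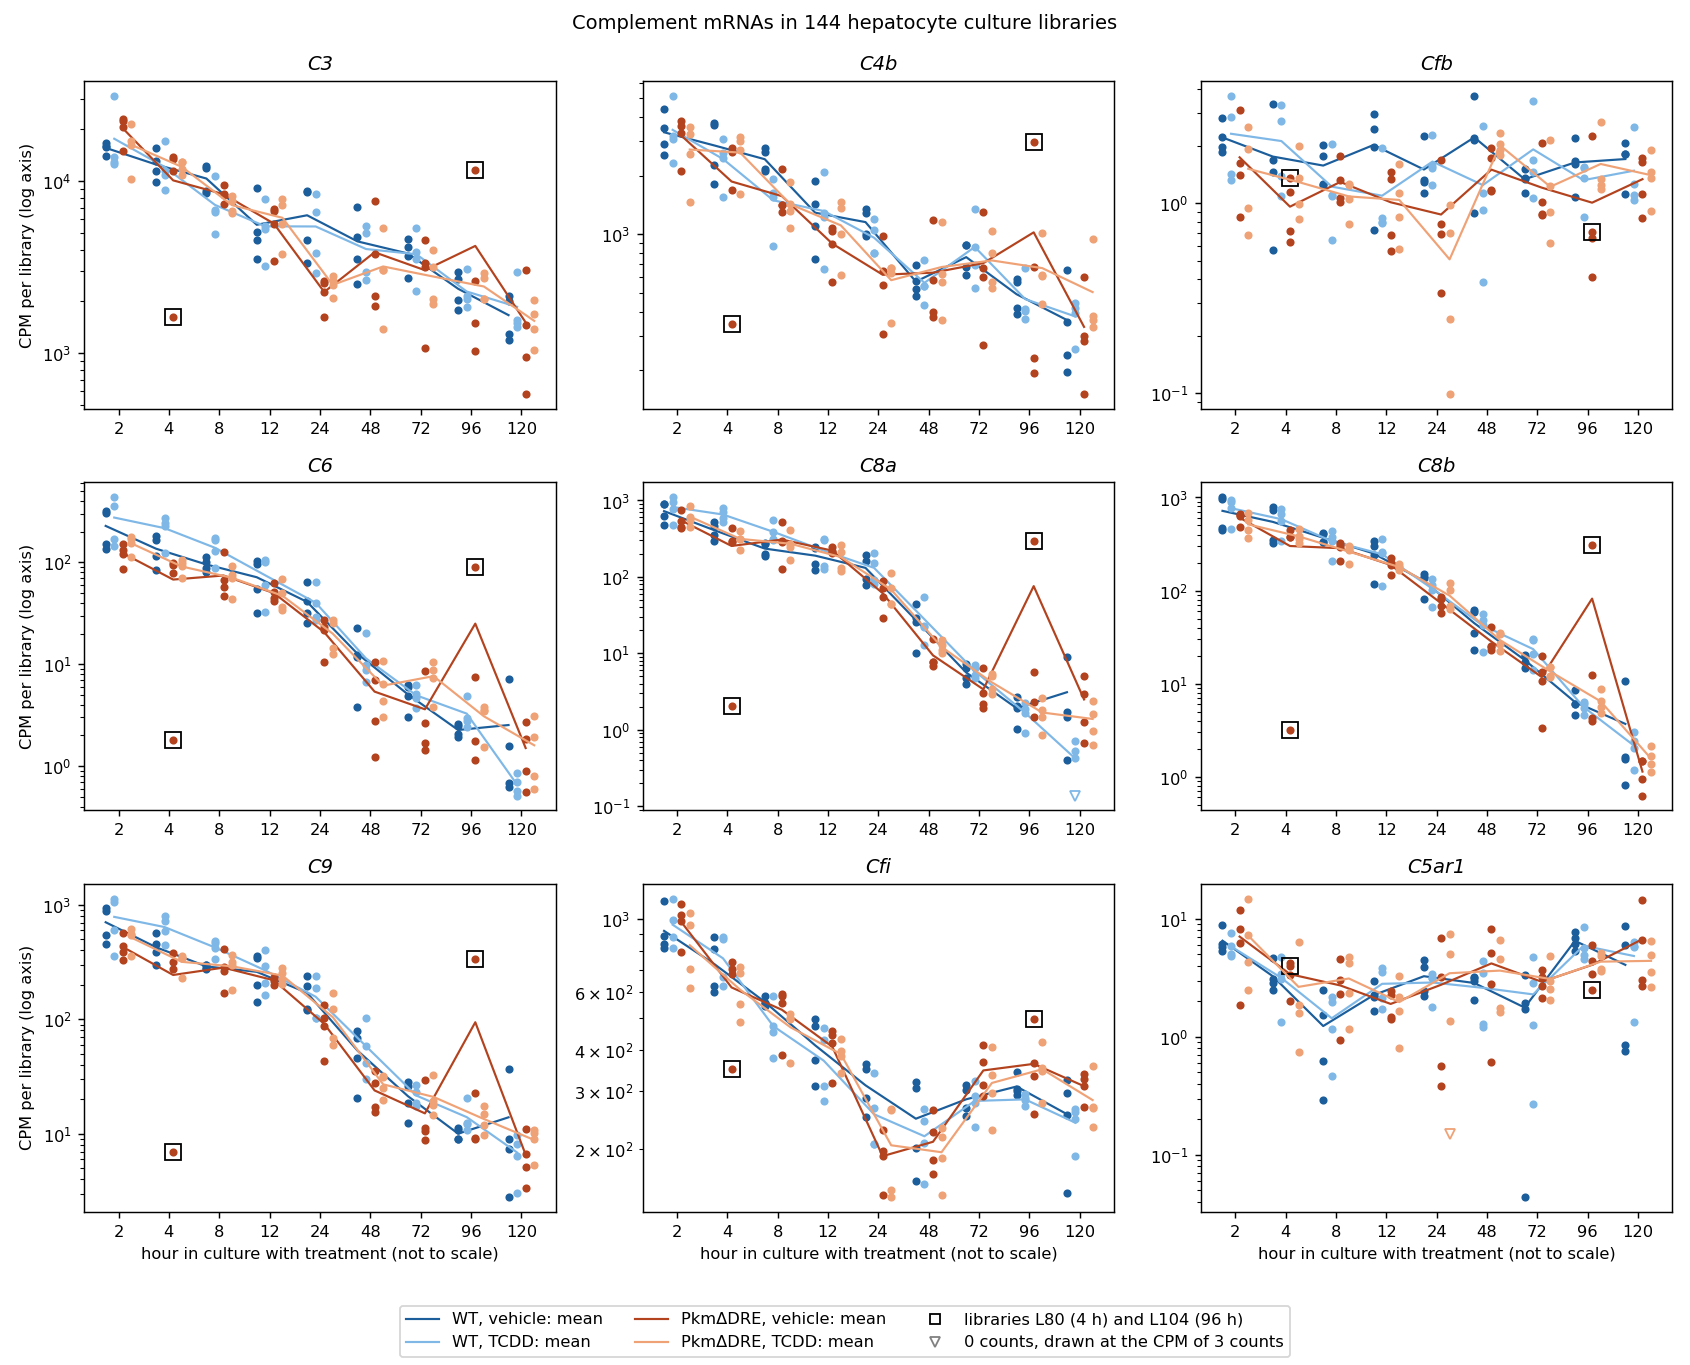
CPM of the 9 genes (log axis) against hour in culture (not to scale), with 1 point per library, lines through the means of 4 libraries, colours for label and treatment, squares for libraries L80 and L104, and triangles for 0 counts drawn at the CPM of 3 counts. The means of *C6*, *C8a*, *C8b* and *C9* are under 10% of their 2 h value from 48 h in each colour, apart from the group with library L104. No mean of *C5ar1* is above 7.22 CPM and none of *Cfb*, as counted, is above 2.33 CPM. The lowest means of *C6*, *C8a* and *C8b*, at late hours, are also under 7.22 CPM.

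To describe culture without TCDD, vehicle libraries at 2, 24 and 120 h were compared within each label. *C3* (chr17:57203970-57228136, GRCm38, minus strand) was at 15824, 16565, 14098 and 16018 CPM in the WT libraries at 2 h. At 24 h it was at 8695, 8797, 3332 and 4534 CPM, and at 120 h at 1299, 2166, 2014 and 1188 CPM. The 3 hours did not overlap. *C3* fell by 1.45 ± 0.31 (log2 ± SE) from 2 to 24 h (edgeR adjusted p = 0.00131) and fell by 3.44 ± 0.34 from 2 to 120 h (adjusted p = 7.67e-07).

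Under the label PkmΔDRE, *C3* was at 22473, 15069, 22929.6 and 20767 CPM at 2 h, 2281, 1633, 2552 and 2624 CPM at 24 h and 3045, 1470.2, 579.7 and 951 CPM at 120 h. Both later hours lay below 2 h and overlapped each other. *C3* fell by 3.41 ± 0.50 from 2 to 24 h and fell by 4.00 ± 0.52 from 2 to 120 h. From 24 to 120 h the change was -0.59 ± 0.46 (95% interval -1.57 to 0.39, adjusted p = 0.392), which did not pass. Without library L105, the highest of its 120 h group, the change from 2 to 120 h was -4.63.

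*C4b* (chr17:34728380-34743882, minus strand), a C4 gene whose product joins the classical C3 convertase, was at 3511, 4408, 2546 and 2899 CPM in the WT vehicle libraries at 2 h. At 24 h it was at 1352, 1282, 976 and 1003 CPM, and at 120 h at 355, 658, 195 and 239 CPM. Again the hours did not overlap. *C4b* fell by 1.70 ± 0.34 on the log2 scale from 2 to 24 h and fell by 3.42 ± 0.36 from 2 to 120 h under WT, and fell by 2.63 ± 0.48 and fell by 3.52 ± 0.50 under PkmΔDRE. Its close paralog *C4a* was at -3.91 ± 0.44 under WT and -4.01 ± 0.40 under PkmΔDRE from 2 to 120 h. The 2 genes are near-identical, and how reads common to both were counted makes each level uncertain.

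*Cfb* (chr17:34856374-34862518, minus strand), the protease of the alternative convertase, was at 1.86, 2.83, 2.22 and 1.98 CPM in the WT vehicle libraries at 2 h and at 1.83, 1.83, 2.07 and 1.12 CPM at 120 h. The groups overlapped, and the change of -0.59 ± 0.39 did not pass (95% interval -1.42 to 0.25, adjusted p = 0.201). Of its 2825 exon bases in the GRCm38 annotation, 2246 (79.5%) are also exon of *Gm20547*, and the counting leaves out a read pair that overlaps both genes. The level of *Cfb* is for that reason uncertain, and its highest count in any library was 76.

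The terminal components showed the deepest changes of the 9. *C6* (chr15:4727175-4814967, plus strand), which binds C5b, was at 319.8, 305, 152 and 135.5 CPM in the WT vehicle libraries at 2 h. It was at 64.9, 41.8, 25.5 and 31.6 CPM at 24 h, and at 0.689, 7.23, 0.629 and 1.57 CPM at 120 h. The hours did not overlap, and library L34 was the high one at 120 h. *C6* fell by 6.74 ± 0.76 on the log2 scale from 2 to 120 h under WT (adjusted p = 4.25e-06) and fell by 6.60 ± 0.51 under PkmΔDRE (adjusted p = 1.65e-07).

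*C8a* (chr4:104815679-104876398, minus strand) and *C8b* (chr4:104766317-104804548, plus strand), which encode the alpha and beta chains of C8, lie near each other on opposite strands. *C8a* was at 898, 901, 629 and 472 CPM in the WT vehicle libraries at 2 h, and at 1.69, 8.84, 0.407 and 1.47 CPM at 120 h. *C8b* was at 953, 1001, 468 and 449 CPM at 2 h, and at 1.62, 10.8, 0.814 and 1.57 CPM at 120 h. The hours were far apart for both genes, and library L34 was again the high one at 120 h. *C8a* fell by 8.10 ± 0.81 (adjusted p = 1.48e-06) and *C8b* fell by 7.84 ± 0.80 (adjusted p = 1.77e-06) on the log2 scale.

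In the PkmΔDRE vehicle libraries *C8a* went from 443, 543, 454 and 753 CPM at 2 h to 2.95, 5.07, 1.28 and 0.676 CPM at 120 h. *C8b* went from 644, 478, 632 and 672 CPM to 0.629, 0.951, 1.48 and 1.49 CPM. No library at 120 h came near those at 2 h. *C8a* fell by 8.03 ± 0.63 (adjusted p = 2.04e-07) and *C8b* fell by 9.32 ± 0.41 (adjusted p = 1.36e-09) on the log2 scale. Without libraries L91, L105 and L108 the change of *C8a* was -7.39.

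*C9* (chr15:6445327-6498751, plus strand), whose product forms the pore of the attack complex, was at 884, 938, 543 and 451 CPM in the WT vehicle libraries at 2 h. It was at 240.2, 197, 121.03 and 123.3 CPM at 24 h, and at 9.03, 36.6, 2.81 and 7.37 CPM at 120 h. The hours did not overlap. *C9* fell by 5.87 ± 0.70 on the log2 scale from 2 to 120 h under WT (adjusted p = 7.21e-06) and fell by 6.28 ± 0.45 under PkmΔDRE (adjusted p = 8.19e-08). Without libraries L91, L105 and L108 the PkmΔDRE change was -5.69.

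The means of *C6*, *C8a*, *C8b* and *C9* were first under 10% of their 2 h mean at 48 h in both labels and under both treatments. Library L34 was above its group for all 4 genes, and its hepatocyte markers summed to 18537 CPM, beside 3440.0 to 11594 CPM in the other 3 libraries. Without it, the WT changes from 2 to 120 h were -8.08 for *C6*, -9.43 for *C8a*, -9.27 for *C8b* and -6.98 for *C9*. From 24 to 120 h they were -4.09, -5.47, -5.17 and -3.66 with library L34 and -5.44, -6.82, -6.61 and -4.78 without it, in the same order of genes.

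*Cfi* (chr3:129835884-129875332, plus strand), which encodes the inhibitory protease factor I, fell in the first day. It was at 885, 1132, 837 and 815 CPM in the WT vehicle libraries at 2 h, at 363, 350.4, 251 and 285 CPM at 24 h, and at 295, 325, 148 and 253 CPM at 120 h. Both later hours lay below 2 h and overlapped each other. From 2 to 24 h *Cfi* fell by 1.71 ± 0.24 under WT (adjusted p = 3.56e-05) and fell by 2.63 ± 0.27 under PkmΔDRE (adjusted p = 7.19e-06) on the log2 scale. From 2 to 120 h it fell by 2.05 ± 0.24 and fell by 1.91 ± 0.26.

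From 24 to 120 h the change of *Cfi* was -0.34 ± 0.23 under WT (95% interval -0.84 to 0.15, adjusted p = 0.237). In the PkmΔDRE vehicle libraries it stood at 191, 229, 197 and 145 CPM at 24 h and at 337, 325, 269 and 310.2 CPM at 120 h, without overlap. The change there was 0.72 ± 0.25 (95% interval 0.18 to 1.25, adjusted p = 0.0552), which did not pass, and it passed with RLE scaling (adjusted p = 0.0371) and with DESeq2 (adjusted p = 0.00549). Without libraries L91, L105 and L108 it was 0.66 ± 0.34 (95% interval -0.09 to 1.40, edgeR adjusted p = 0.204) and did not pass.

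*C5ar1* (chr7:16246743-16259540, minus strand), the C5a receptor gene, was at 8.91, 6.12, 5.78 and 5.31 CPM in the WT vehicle libraries at 2 h and at 6.03, 0.765, 0.851 and 8.65 CPM at 120 h. The groups overlapped, and the change of -0.88 ± 0.63 did not pass (95% interval -2.22 to 0.47, adjusted p = 0.235). The 4 libraries at 120 h were split, with libraries L33 and L36 high and libraries L34 and L35 low. In the same order, from library L33 to library L36, the macrophage markers summed to 155, 31.8, 24.8 and 149 CPM, so that both were high in the same libraries, and the part of these cells in the level of *C5ar1* was not tested. Under PkmΔDRE the change was -0.31 ± 0.85 (95% interval -2.12 to 1.51, adjusted p = 0.784). The 0 counts of *C5ar1* in library L126 (PkmΔDRE TCDD 24 h) allow up to 0.149 CPM.

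**Figure D2:**
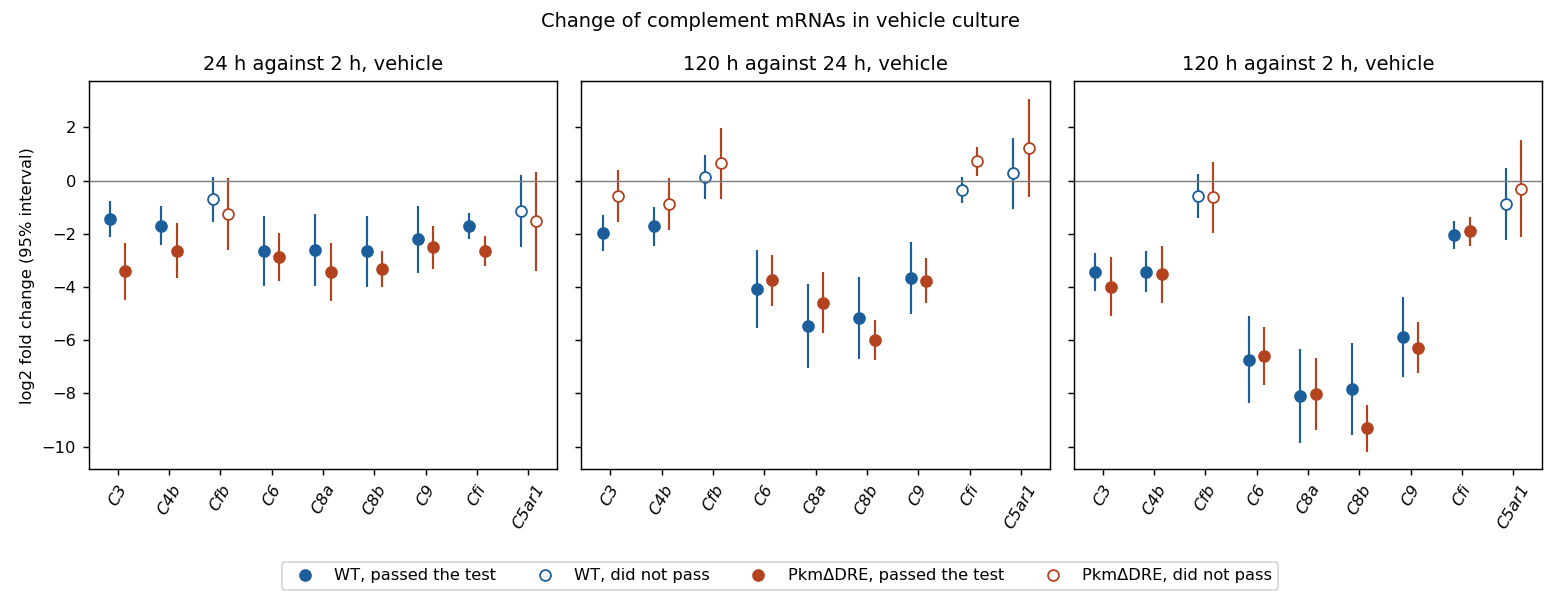
Log2 fold change of each gene between hours of vehicle culture with its 95% interval, for 24 h against 2 h, 120 h against 24 h and 120 h against 2 h, in WT (blue) and PkmΔDRE (red), with filled points for changes that passed the test. From 2 to 120 h the 7 genes other than *Cfb* and *C5ar1* lie below 0 in both labels, from -1.91 for *Cfi* to -9.32 for *C8b*, both under PkmΔDRE.

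From 2 to 120 h, 7 of the 9 genes fell under WT and 7 under PkmΔDRE, at an adjusted p under 0.05 and a fold of at least 1.5. The background was 26.5% of all genes tested falling and 34.1% rising under WT, and 22.4% falling and 24.4% rising under PkmΔDRE. The median log2 change of the 9 genes was -3.44 under WT and -4.00 under PkmΔDRE, beside 0.17 and 0.13 over all genes tested. From 2 to 24 h, 7 and 7 fell, all but *Cfb* and *C5ar1*, where 21.3% of all genes fell and 27.5% rose under WT and 16.6% fell and 13.7% rose under PkmΔDRE.

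From 24 to 120 h, 6 of the genes fell under WT (*C3*, *C4b* and the 4 terminal components), beside 20.4% of all genes falling and 19.5% rising. Under PkmΔDRE 4 fell, which were *C6*, *C8a*, *C8b* and *C9*, beside 10.8% of all genes falling and 9.85% rising. None of the 9 passed as a rise in these contrasts. The difference between the labels in these changes was not tested.

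The other complement genes were taken from a list of 41. From 2 to 120 h, 24 of 32 tested fell and 1 rose under WT, and 23 of 31 fell and 1 rose under PkmΔDRE, with a median log2 change of -2.96 and -2.78. Under WT *C8g*, the gene of the gamma chain that completes C8, fell by 7.19 ± 0.45, *Mbl1*, a mannose-binding lectin gene, fell by 6.39 ± 0.65 and *Cpn2*, which encodes a subunit of carboxypeptidase N, fell by 5.31 ± 0.55. *Clu*, the gene of clusterin, an inhibitor of the terminal complex, rose by 1.73 ± 0.19 under WT and 1.79 ± 0.55 under PkmΔDRE. By role, 9 of 11 initiation genes, 4 of 4 convertase genes, 8 of 9 soluble regulators and 2 of 7 membrane regulators and receptors tested fell under WT. *C7*, the remaining component of the attack complex, was not tested, and its mean was 0 CPM in the WT vehicle libraries at 2 and 120 h.

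Markers of cell type moved with the hour as well. All 8 hepatocyte markers fell from 2 to 120 h in both labels, with a median log2 change of -4.26 under WT and -4.58 under PkmΔDRE. Over all groups their summed level ran from 120119 to 221142 CPM at 2 h and from 3440.0 to 18537 CPM at 120 h. Of 11 macrophage markers 7 fell under WT and 7 under PkmΔDRE, and their sum ran from 155 to 681 CPM at 2 h and from 24.8 to 298 CPM at 120 h. *Clec4f*, which defines Kupffer cells, fell by 7.01 ± 0.87 under WT, while *Lyz2* was at 0.22 ± 0.72 and did not pass.

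The 6 endothelial markers summed to a mean of 356 CPM at 2 h and 84.3 CPM at 120 h, and 6 of them fell under WT and 5 under PkmΔDRE. Sums ran over 12.9 to 37.5 CPM at 2 h and 14.5 to 188 CPM at 120 h for 6 stellate markers, and over 33.1 to 136.97 and 104.1 to 201 CPM for 4 cholangiocyte markers. The 6 neutrophil markers were near 0, at 0.0803 to 2.28 and 0 to 0.607 CPM in sum. The part of cell composition in the fall of the complement genes was not tested, and in bulk libraries fewer cells of a type and less RNA per cell cannot be told apart.

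**Figure D3:**
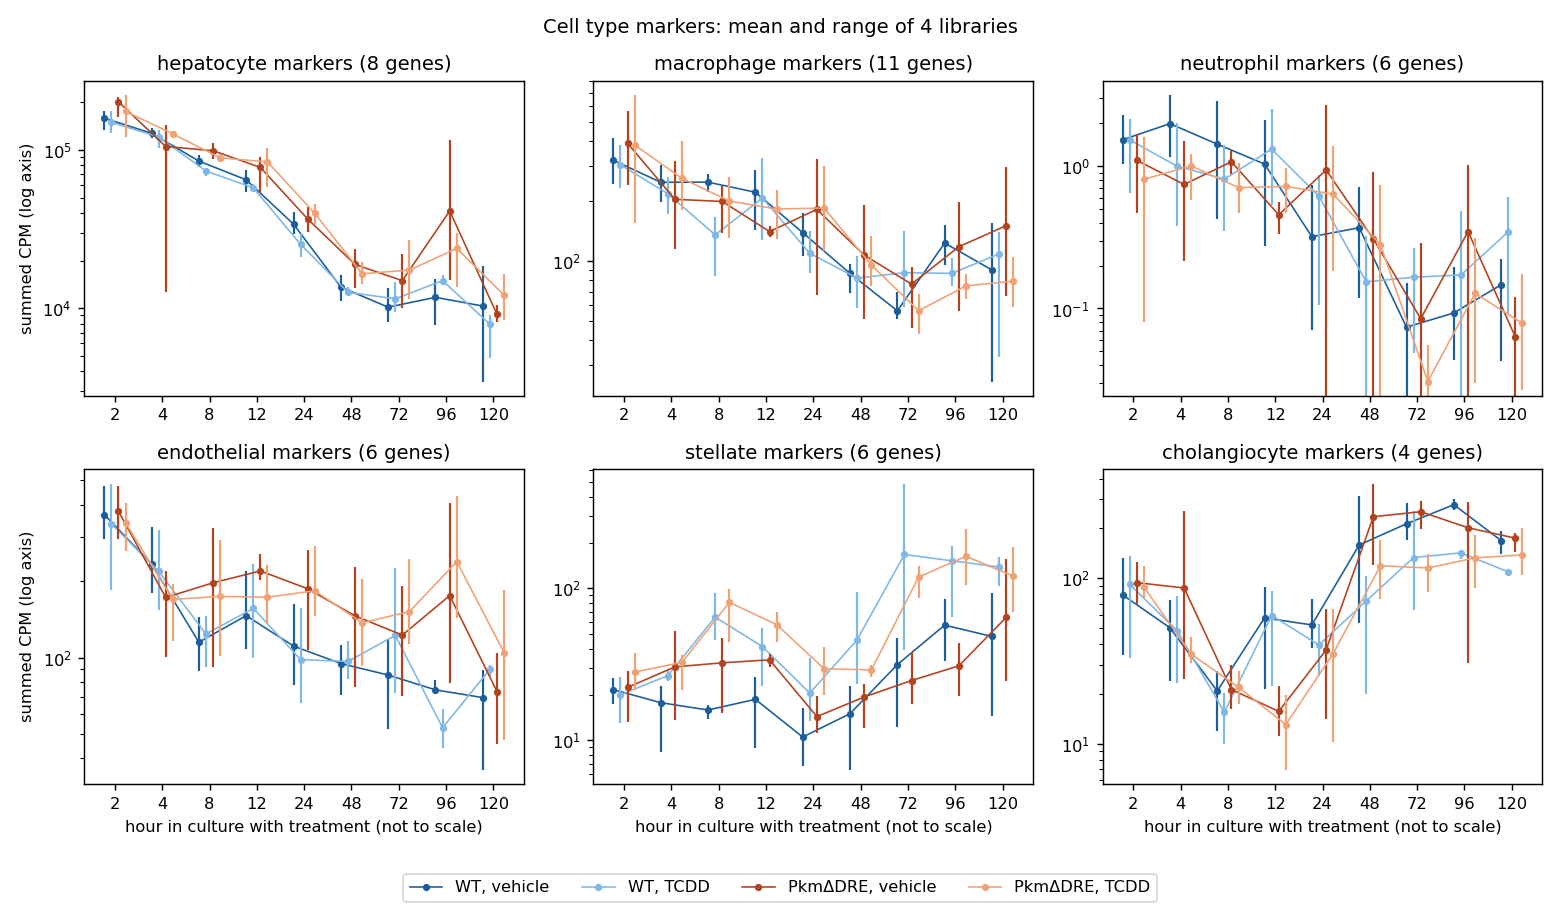
Summed CPM of the markers of 6 cell types (log axis) against hour in culture (not to scale), with points for the mean and bars for the lowest and highest of 4 libraries, colours for label and treatment. The hepatocyte sum runs from 120119 to 221142 CPM at 2 h and from 3440.0 to 18537 CPM at 120 h, the long bars at 4 h and 96 h of PkmΔDRE vehicle include libraries L80 and L104, and a bar that leaves the panel reaches 0.

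Across the 36 group means of log2(CPM + 1), the 4 terminal components followed one another with Pearson's r of 0.980 to 0.995, and *C3* followed *C4b* with 0.9751. *Cfi* was at 0.860 with *C3* and 0.705 with *C8b*, while *C5ar1* was at 0.001 with *C3* and -0.199 with *C8b*. These values are descriptions, since the 36 groups share the course of culture. Among 11491 genes compared, the nearest to *C9* was *Pigr* (0.995), to *C8a* *Pigr* (0.995), to *C6* *Otc* (0.992), to *C8b* *Mup7* (0.993), to *C3* *Cd302* (0.976), to *C4b* *Ambp* (0.9745) and to *Cfi* *Slc25a23* (0.963). The nearest to *C5ar1* was *C3ar1* (0.863), the gene of the C3a receptor, followed by *Ccl6* (0.811) and *Hunk* (0.809). The nearest to *Cfb* was *Btg2* (0.644).

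The response to TCDD was tested against time-matched vehicle in each label and hour. Over the 9 hours, 2 of 81 tests passed for the 9 genes under WT and 0 of 81 under PkmΔDRE. At an unadjusted p under 0.05, edgeR gave 11 and 4 of 81, beside 17.1% and 7.17% of the tests over all genes. Both calls were at 8 h under WT, an hour at which 37.4% of all genes tested were called, 23.8% rising and 13.6% falling, so that 2 of 9 was a smaller share than the background. The median log2 change of the 9 genes there was -0.15, beside 0.00 over all genes.

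*C8a* was at 189, 198, 271 and 281 CPM in the WT vehicle libraries at 8 h and at 303, 392, 309 and 550.1 CPM in the TCDD libraries. The groups did not overlap. *C8a* rose by 0.70 ± 0.20 on the log2 scale (95% interval 0.26 to 1.13, edgeR adjusted p = 0.014). Without library L48, the highest, the change was 0.49 and did not pass, and in 1 fit of all WT libraries it was 0.59 and did not pass.

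*C4b* was at 2789, 2658, 2158 and 2109 CPM in the WT vehicle libraries at 8 h and at 1556, 1911, 868 and 1635 CPM in the TCDD libraries, again without overlap. It fell by 0.73 ± 0.22 on the log2 scale (95% interval -1.21 to -0.26, edgeR adjusted p = 0.0167). Without library L47, the lowest, the change was -0.55 and did not pass. The 2 calls went in opposite directions, and each was lost without 1 library.

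*C9* was at 282, 299, 276 and 301 CPM in vehicle and 461, 484, 333 and 419 CPM under TCDD at 8 h under WT. The groups did not overlap, and the change of 0.52 ± 0.14 had an adjusted p of 0.0101 but was under the 1.5-fold threshold. *C6* was at 0.52 ± 0.20 (adjusted p = 0.0544) and *C3* at -0.54 ± 0.23 (adjusted p = 0.0709). *C8b*, the partner chain of *C8a*, was at -0.15 ± 0.20 (95% interval -0.58 to 0.27), *Cfi* at -0.28 ± 0.14, *Cfb* at -0.42 ± 0.49 and *C5ar1* at 0.17 ± 0.68. Without library L47, *C6* at 0.68 and *C9* at 0.62 passed, without library L12 *C6* at 0.60 passed, and without library L48 *C3* at -0.78 passed.

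The same hour under the label PkmΔDRE gave no call among the 9 genes, where 0.106% of all genes were called. *C8a* was at 290.4, 525, 291 and 125.8 CPM in vehicle and at 167, 407, 265 and 246 CPM under TCDD. The groups overlapped, and the change was -0.17 ± 0.39 (95% interval -1.04 to 0.69). *C4b* was at -0.15 ± 0.20 (95% interval -0.59 to 0.30). The difference in response between the labels at 8 h, PkmΔDRE minus WT, was -0.99 ± 0.48 for *C8a* (95% interval -1.99 to 0.02, adjusted p = 0.319) and 0.47 ± 0.31 for *C4b* (95% interval -0.18 to 1.11, adjusted p = 0.421), and neither passed.

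Beside these values, the 11 macrophage markers summed to 221 to 273 CPM in WT vehicle and 84.4 to 167 CPM in WT TCDD at 8 h, without overlap, and 8 of the 11 fell. The 8 hepatocyte markers summed to 78301 to 93047 and 68678 to 76092 CPM, also without overlap, and 4 fell and 1 rose. The 6 stellate markers summed to 13.9 to 17.1 CPM in WT vehicle and 45.7 to 93.8 CPM in WT TCDD, without overlap, and of the 2 that could be tested 1 rose. The endothelial, cholangiocyte and neutrophil sums overlapped. Under PkmΔDRE the stellate sums were 15.1 to 47.2 and 44.5 to 98.2 CPM and the macrophage sums were 138.5 to 238 and 130.7 to 263 CPM. The part of these markers in the values of the 9 genes was not tested.

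Library quality differed between the same groups. At 8 h under WT, read pairs outside annotated features made up 3.94% to 4.84% in vehicle and 7.21% to 15.6% under TCDD, and 15401 to 17203 and 18337 to 20626 genes were detected, neither with overlap. Library L45 (TCDD) stood out, with 23.6% of its pairs unmapped and 48.0% on no gene, the highest share of all libraries. The change of *C8a* and *C4b* was 0.80 and -0.76 without library L45, and both passed. The part of library quality in these values was not tested.

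Other complement genes at 8 h under WT gave 4 rises and 13 falls among 31 tested. *Hc*, which encodes C5, rose by 1.10 ± 0.22 on the log2 scale. *Colec11*, a collectin gene, fell by 2.02 ± 0.52, *C1qa*, the gene of a C1q chain, fell by 1.13 ± 0.32 and *Fcna*, a ficolin gene, fell by 1.10 ± 0.37. *C1qa*, *C1qb* and *C1qc* are also 3 of the 11 macrophage markers.

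At the other hours under WT none of the 9 genes was called. The shares of all genes called were 0% (2 h), 0% (4 h), 0.0321% (12 h), 0.373% (24 h), 0.00763% (48 h), 0% (72 h), 15.1% (96 h, 10.1% rising and 5.00% falling) and 1.46% (120 h). The comparisons at 2, 48, 72 and 96 h hold libraries L40, L21, L64 and L31, whose *Cyp1a1* stood apart from their own hour. Low shares at these hours therefore do not show that TCDD had no effect, and the shares without these libraries are not given here. At 4 h *C8a* was at 354, 520.2, 463 and 295 CPM in vehicle and 598, 707, 516 and 798 CPM under TCDD. The groups overlapped, and the change of 0.65 ± 0.21 had an adjusted p of 0.286. In library order each TCDD value was above the vehicle value. The share of unmapped read pairs was 14.2%, 14.5%, 8.07% and 9.62% in these vehicle libraries. It was 12.7%, 13.8%, 7.14% and 9.13% under TCDD, a similar order, which was also seen at 12 h. Whether libraries in the same position share a cell isolation was not tested, and the fits did not allow for it. Missing calls at 4 and 12 h therefore do not show that TCDD had no effect. At 96 h *C9* was at 0.54 ± 0.21 (adjusted p = 0.0624) and *C6* at 0.60 ± 0.27 (adjusted p = 0.105), and without library L66 *C9* passed at 0.65.

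At 96 h under WT, 6 of 30 other complement genes tested rose and 3 fell. *Cfhr2*, listed among the soluble regulators, rose by 1.82 ± 0.15 and *C4a* by 1.21 ± 0.37 on the log2 scale. *C4bp*, which encodes the C4b-binding inhibitor, fell by 0.91 ± 0.13 and *Clu* fell by 0.88 ± 0.13. *C4b* itself was at -0.03 ± 0.22 at that hour (95% interval -0.52 to 0.47).

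At 120 h under WT, *C8a* was at 1.69, 8.84, 0.407 and 1.47 CPM in vehicle and at 0.531, 0.434, 0 and 0.711 CPM under TCDD, where the 0 counts of library L71 allow up to 0.138 CPM. The groups overlapped. The fitted change of -2.86 ± 1.02 had an adjusted p of 0.212, and it passed in 1 fit of all WT libraries at -2.80. That of *C6* was -1.94 ± 0.78 (adjusted p = 0.264), and library L34 was the high vehicle library in both.

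Under the label PkmΔDRE the shares of all genes called were 0% (2 h), 0% (4 h), 0.0240% (12 h), 0.0160% (24 h), 0.404% (48 h), 1.13% (72 h), 0.0793% (96 h) and 0.633% (120 h), with none of the 9 genes among them. Without libraries L80 and L104 the shares were 0.00817% at 4 h and 2.25% at 96 h, again with none of the 9 genes. The vehicle group at 96 h holds library L104. There *C8a* was at 5.76, 1.49, 2.30 and 294 CPM in vehicle, library L104 last, and at 0.845, 1.46, 2.59 and 1.84 CPM under TCDD. *C8b* was at 12.5, 4.29, 3.98 and 307 CPM in vehicle and at 5.65, 8.80, 6.52 and 4.87 CPM under TCDD. Library L104 was far above every other library of that hour, and its hepatocyte markers summed to 114683 CPM.

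The changes at that hour were -5.65 ± 1.81 for *C8a*, -3.82 ± 1.44 for *C8b*, -3.16 ± 1.32 for *C6* and -2.96 ± 1.21 for *C9*, none of which passed. Without library L104 they were -0.93 ± 0.49, -0.13 ± 0.39, -0.18 ± 0.57 and -0.04 ± 0.33. *C3* moved from -0.91 ± 0.75 to 0.47 ± 0.28 and *C4b* from -0.74 ± 0.85 to 0.83 ± 0.41. In 1 fit of all PkmΔDRE libraries, with library L104 in it, the 4 terminal genes passed at -5.57 for *C8a*, -3.75 for *C8b*, -3.09 for *C6* and -2.89 for *C9*.

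Library L80 is in the vehicle group of PkmΔDRE at 4 h. *C8b* was at 379.7, 375, 446 and 3.20 CPM there, library L80 last, and *C8a* at 294, 432, 288 and 2.06 CPM in the same order. The TCDD libraries of that hour held 322 to 455 CPM of *C8b*. With library L80 the change of *C8b* was 0.34 ± 0.94 and without it -0.08 ± 0.17, and neither passed. The hepatocyte markers of library L80 summed to 12610.5 CPM.

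**Figure D4:**
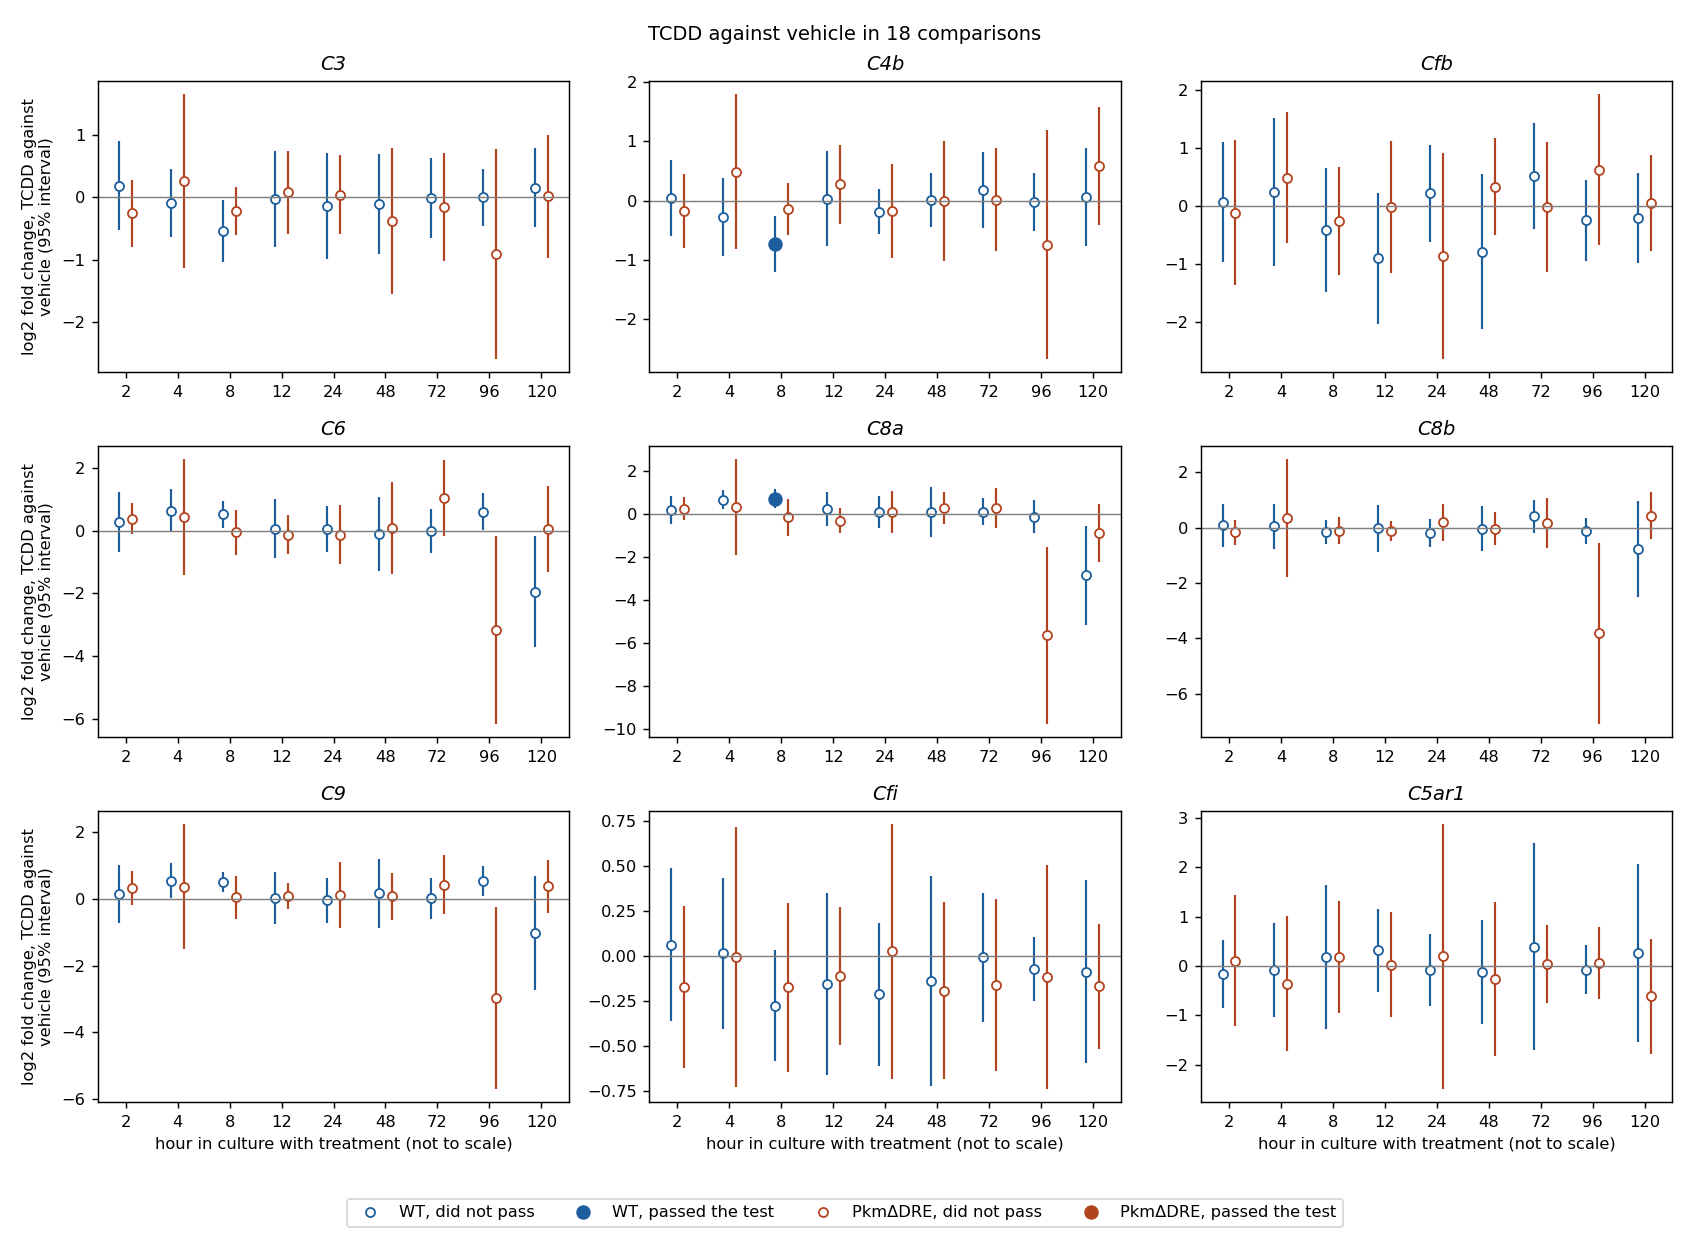
Log2 fold change of each gene, TCDD against time-matched vehicle, with its 95% interval at 9 hours (not to scale), in WT (blue) and PkmΔDRE (red), with filled points for changes that passed the test. The filled points are *C4b* at -0.73 and *C8a* at 0.70, both at 8 h under WT, and the wide intervals at 96 h of PkmΔDRE are in the group with library L104.

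The mean TCDD response over the early hours (2 to 12 h) and the late hours (24 to 120 h) gave no call among the 9 genes in either label. Under WT the early mean holds library L40 and the late mean libraries L21, L31 and L64, whose *Cyp1a1* stood apart from their own hour. A missing call there does not show that TCDD had no effect, and values without these libraries are not given here. Of all genes, 15.9% (early) and 3.79% (late) were called under WT, and 0.229% and 3.59% under PkmΔDRE. At an unadjusted p under 0.05 edgeR gave 1, 1, 0 and 1 of 9, beside 42.9%, 24.8%, 13.3% and 16.9% of all genes in the same order. *C8a* in the early mean under WT was at 0.43 ± 0.15 (95% interval 0.13 to 0.73, adjusted p = 0.0306), under the 1.5-fold threshold. *C8b* was at -0.00 ± 0.18 (95% interval -0.38 to 0.37) and *C4b* at -0.23 ± 0.17 (95% interval -0.57 to 0.11) in the same mean.

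In the late mean under PkmΔDRE *C8a* was at -1.14 ± 0.39 (adjusted p = 0.0906) with library L104 and at -0.20 ± 0.22 without libraries L80 and L104. *C6*, *C8b* and *C9* turned from -0.38 ± 0.37, -0.57 ± 0.32 and -0.34 ± 0.30 to 0.22 ± 0.29, 0.17 ± 0.16 and 0.24 ± 0.18, none of which passed. Without libraries L80 and L104, 0.304% (early mean) and 4.55% (late mean) of all genes were called under PkmΔDRE.

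The difference in TCDD response between the labels gave 0 calls among the 9 genes at the 9 hours. The comparisons at 2, 48, 72 and 96 h hold libraries L40, L21, L64 and L31, and values without these are not given here. At an unadjusted p under 0.05 edgeR gave 4 of 81, all at 96 h, the hour of library L104, beside 6.49% of the tests over all genes and 13.1% of those at 96 h. The shares of all genes called were 0% at 2, 4, 8, 12, 24, 96 and 120 h, 0.00715% at 48 h and 0.00695% at 72 h. Without libraries L80 and L104, *C8a* at 96 h moved from -5.49 ± 1.86 to -0.83 ± 0.63. The shares of all genes called in that setting were 0.00739% at 4 h and 0% at 96 h.

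Between the labels in vehicle, 0 of the 9 genes were called in the mean over early hours, beside 0.975% of all genes. In the mean over late hours, which holds libraries L21 and L31, 0 were called, beside 0.266%. At an unadjusted p under 0.05 edgeR gave 3 and 1 of 9, beside 15.5% and 14.3% of all genes. Without libraries L80 and L104 none of the 9 was called, beside 1.18% (early) and 0.559% (late) of all genes. In that setting *C4b*, *C6*, *C8b*, *C9* and *Cfb* (early) and *C3*, *C8b*, *C9* and *Cfb* (late) had an unadjusted p under 0.05. Each of these was lower under PkmΔDRE. The share of all genes at that p is not given for this setting. The list therefore has no background to stand beside and gives no result about the 9 genes. *C6* was at -0.71 ± 0.27 (PkmΔDRE minus WT, 95% interval -1.26 to -0.16, adjusted p = 0.194) in the early mean and at -0.60 ± 0.17 (adjusted p = 0.052) without libraries L80 and L104. *C3* was at -0.07 ± 0.19 (95% interval -0.46 to 0.33) and *Cfi* at -0.07 ± 0.11 (95% interval -0.30 to 0.15). Without the 2 libraries the late means of *C8a*, *C8b*, *C9* and *C6* moved from 0.37 ± 0.42, 0.03 ± 0.37, -0.04 ± 0.33 and 0.05 ± 0.39 to -0.56 ± 0.28, -0.70 ± 0.23, -0.61 ± 0.24 and -0.54 ± 0.31, and none passed.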

How the data were processed

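RNA-Seq libraries of primary mouse hepatocytes were analysed from gene counts. The authors deposited 1 table of STAR read pair counts per library, and its unstranded column was used here. The submitters' processing notes name FastQC 0.11.3, Trimmomatic 0.39, STAR 2.7, DESeq2 and the build GRCm39. Lines that name no gene (16.8% to 48.0% of counted pairs, median 24.2%) were not used for library sizes or for any test.

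Counts were filtered with filterByExpr (count minimum 10, total minimum 15), scaled by TMM and fitted over all genes with the robust quasi-likelihood test of edgeR 4.0.16 (R 4.3.3). A gene was called at a Benjamini-Hochberg adjusted p under 0.05 over all genes tested and a fold of at least 1.5, and the procedure was tested on simulated data. SE was the absolute log2 fold change divided by the square root of F. The fits took the 8 libraries of 1 label and hour for TCDD, the 12 vehicle libraries of 1 label for culture, the 16 libraries of 1 hour for the difference in response, and 32 (early) or 40 (late) libraries for means over hours.

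Levels are CPM on TMM library sizes over the whole series. Counting error only is covered by the limit of 3 counts for a count of 0. Gene coordinates and exon overlaps came from a GRCm38 annotation and promoters from RefSeq (GRCm38.p6), while the counts were made on GRCm39, and no coordinate given here was used for counting. DESeq2 1.42.0, RLE scaling, no filter, no fold threshold, larger fits, each library left out in turn, and libraries L21, L31, L40 and L64 left out were alternatives. Leaving out libraries L80 and L104, and L91, L105 and L108 for vehicle culture, was added after seeing the data.

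The 9 genes and all gene and marker lists were chosen with earlier results of these data known. All 9 genes and the checks *Pkm* and *Cyp1a1* are named. Of the other 41 complement genes at most the 3 largest called rises and falls of a comparison are named, and a few that this rule would name are counted but not reported here. *C4a*, *C7* and *C8g* were singled out after their values were seen where they fall outside that rule. The genes most like each of the 9 were ranked by Pearson's r over group means.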

Additional observations from a re-analysis of the deposited data

Results flagged for a closer look

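In 31 of the 324 groups of 4 libraries (9 genes in 36 groups), the highest or the lowest library lay so far from the nearest of the others that the gap, as a share of the group's range, passed Dixon's critical value at 95%. For independent groups of normal values about 1 in 20 would be flagged. These groups share libraries and the terminal genes followed one another, so the 31 cannot be judged against that share.

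*C3* was at 31293 CPM in library L40 (WT TCDD 2 h), beside 12524 to 13820.0 CPM in the other libraries, and at 2967 CPM in library L71 (WT TCDD 120 h), beside 1420.5 to 1567 CPM in the other libraries. Its level was also at 11668 CPM in library L104 (PkmΔDRE vehicle 96 h), beside 1029 to 2634 CPM in the other libraries. *C4b* was at 672 CPM in library L65 (WT TCDD 96 h), beside 368 to 413 CPM in the other libraries, and at 2155 CPM in library L84 (PkmΔDRE vehicle 8 h), beside 1294 to 1418 CPM in the other libraries. It stood apart further at 348 CPM in library L126 (PkmΔDRE TCDD 24 h), beside 630.3 to 672 CPM in the other libraries, and at 940.3 CPM in library L141 (PkmΔDRE TCDD 120 h), beside 332 to 381 CPM in the other libraries.

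*C6* was at 7.23 CPM in library L34 (WT vehicle 120 h), beside 0.629 to 1.57 CPM in the other libraries, and at 8.64 CPM in library L98 (PkmΔDRE vehicle 72 h), beside 1.43 to 2.66 CPM in the other libraries. The gene was, in addition, at 89.8 CPM in library L104 (PkmΔDRE vehicle 96 h), beside 1.15 to 7.50 CPM in the other libraries, and at 1.56 CPM in library L137 (PkmΔDRE TCDD 96 h), beside 3.46 to 3.76 CPM in the other libraries. *C8a* was at 8.84 CPM in library L34 (WT vehicle 120 h), beside 0.407 to 1.69 CPM in the other libraries, and at 15.4 CPM in library L94 (PkmΔDRE vehicle 48 h), beside 6.87 to 7.82 CPM in the other libraries. Its level was also at 294 CPM in library L104 (PkmΔDRE vehicle 96 h), beside 1.49 to 5.76 CPM in the other libraries.

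*C8b* was at 10.8 CPM in library L34 (WT vehicle 120 h), beside 0.814 to 1.62 CPM in the other libraries, and at 3.20 CPM in library L80 (PkmΔDRE vehicle 4 h), beside 375 to 446 CPM in the other libraries. It stood apart further at 40.2 CPM in library L93 (PkmΔDRE vehicle 48 h), beside 22.8 to 25.7 CPM in the other libraries, and at 307 CPM in library L104 (PkmΔDRE vehicle 96 h), beside 3.98 to 12.5 CPM in the other libraries. *C9* was at 29.8 CPM in library L98 (PkmΔDRE vehicle 72 h), beside 8.76 to 11.3 CPM in the other libraries, and at 337 CPM in library L104 (PkmΔDRE vehicle 96 h), beside 8.94 to 22.7 CPM in the other libraries. The gene was, in addition, at 228 CPM in library L113 (PkmΔDRE TCDD 4 h), beside 343 to 356 CPM in the other libraries.

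*Cfi* was at 351 CPM in library L80 (PkmΔDRE vehicle 4 h), beside 678 to 739 CPM in the other libraries, and at 365 CPM in library L117 (PkmΔDRE TCDD 8 h), beside 497 to 512 CPM in the other libraries. *C5ar1* was at 1.80 CPM in library L55 (WT TCDD 24 h), beside 3.16 to 3.41 CPM in the other libraries, and at 1.34 CPM in library L71 (WT TCDD 120 h), beside 5.73 to 6.40 CPM in the other libraries. *Cfb* was at 2.28 CPM in library L17 (WT vehicle 24 h), beside 1.14 to 1.32 CPM in the other libraries, and at 1.96 CPM in library L50 (WT TCDD 12 h), beside 0.793 to 0.840 CPM in the other libraries. Its level was also at 2.53 CPM in library L71 (WT TCDD 120 h), beside 1.04 to 1.27 CPM in the other libraries, and at 2.08 CPM in library L100 (PkmΔDRE vehicle 72 h), beside 0.867 to 1.02 CPM in the other libraries. It stood apart further at 2.26 CPM in library L103 (PkmΔDRE vehicle 96 h), beside 0.412 to 0.707 CPM in the other libraries, and at 2.67 CPM in library L137 (PkmΔDRE TCDD 96 h), beside 1.19 to 1.35 CPM in the other libraries.

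Library L104 gave 5 of the 31, libraries L34 and L71 gave 3 each, and libraries L80, L98 and L137 gave 2 each. Of these, L80 and L104 had whole profiles nearest to an hour 5 and 6 steps from the labelled one. What sets the others apart was not tested.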

How the results depend on the processing

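The vehicle changes kept their direction and call in each alternative (16 per gene under WT and 17 under PkmΔDRE), with 20 calls under WT and 18 under PkmΔDRE, 20 to 20 and 18 to 19 when each library was left out in turn, 21 and 19 with DESeq2, and 20 and 19 with RLE scaling. Without libraries L91, L105 and L108 the PkmΔDRE calls again numbered 18, and the changes from 2 to 120 h moved by over 1.5 times for *C8a*, to -7.39, and *C9*, to -5.69. TCDD calls under WT numbered 2, and 2 to 3 with a library left out. In 1 fit of all WT libraries they again numbered 2, with *C8a* at 120 h in place of *C8a* at 8 h. The *C8a* change at 8 h ranged from 0.49 to 0.80 and was lost in 2 of 12 alternatives, and that of *C4b* from -0.88 to -0.55 and was lost in 1 of 12. Under PkmΔDRE 0 TCDD calls became 4 in 1 fit of all libraries of the label, all at 96 h, and 0 to 0 with a library left out. The means over hours gave 0 calls, 1 with no fold threshold, 1 with DESeq2 (*C8a* at -1.20 in the late mean of PkmΔDRE) and 0 to 1 with a library left out, where *C8a* passed without library L102 or L103 at -1.22. The difference in response gave 0 calls, and 4 in 1 fit of all libraries, at 96 h: *C8a* -5.31, *C6* -3.57, *C8b* -3.52 and *C9* -3.32. The groups of these 96 h calls hold library L104. In each comparison that holds library L80 or L104 the main test gave 0 calls, with these libraries and without them. The larger fits were not run without them, so the part of library L104 in the 96 h calls was not tested. Nor was the cause of the other changes tested. *C5ar1* (24 against 2 h, PkmΔDRE) passed without library L92 at -2.66, and *Cfb* (24 against 2 h, WT) with DESeq2 at -0.80. With RLE library sizes, 71 of 72 compared levels moved by less than 1 SD. No paired analysis was possible because the labels give no replicate number or isolation that joins libraries of different groups, and library order was not taken as a pairing. With a highest count of 76 for *Cfb* and 301 for *C5ar1*, these 2 genes had the lowest maximum counts of the 9, and the part of depth in their wide intervals was not tested.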

Other observations

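Complement regulators gave further calls in the means over the late hours of TCDD. *C4bp*, which encodes an inhibitor of the classical convertase, fell by 0.95 ± 0.17 (log2 ± SE) under WT and fell by 0.86 ± 0.21 under PkmΔDRE. *Clu* fell by 0.60 ± 0.11 under WT, and *Cfhr2* rose by 0.68 ± 0.17. Under PkmΔDRE *Cd59a*, which encodes a membrane inhibitor of the attack complex, rose by 0.68 ± 0.07. In the early mean under WT *Hc* rose by 0.95 ± 0.23. The WT means hold library L40 (early) and libraries L21, L31 and L64 (late), whose *Cyp1a1* stood apart from their own hour. Over the 9 hours, 26 of 270 tests of the other complement genes passed under WT (10 rises, 16 falls) and 1 of 270 under PkmΔDRE. All the WT calls were at 8 and 96 h, hours at which 37.4% and 15.1% of all genes tested were called. Under PkmΔDRE the share of all genes called was at most 1.13% at any hour.

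In vehicle culture *C8g* went from a mean of 536 CPM at 2 h to 4.24 CPM at 120 h under WT and from 648 to 2.89 CPM under PkmΔDRE, so all 3 chains of C8 fell. *Clu* went from 3531 to 13588 CPM under WT.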
